A study of Mus musculus with 14 samples.

Results

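Livers of male mice were compared by their level of Hsd3b5, a steroid-metabolizing enzyme of the hydroxysteroid dehydrogenase family that is strongly male-biased in mouse liver. The groups were chosen by the measured signal of the Hsd3b5 probe, quantile normalized and ranked among the 14 livers within each diet. The 3 highest livers of each diet form the high group (6 arrays) and the 3 lowest form the low group (6 arrays). The middle liver of each diet was not used, so that 12 of 14 arrays enter the comparison. The groups are ranks of a measured transcript and not a treatment, and the level of Hsd3b5 itself is given as a description only.

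All mice were male C57Bl/6J, housed under specific-pathogen-free conditions. They received isocaloric diets whose sugar was sucrose or palatinose, a slowly digested isomer of sucrose. The titles state 22 weeks of feeding, whereas the age label reads 18 weeks, so the age at sampling is not settled. The labels name every sample a biological replicate, and each high or low group holds 3 livers per diet. Total RNA was hybridized to Illumina mouse beadchips. Levels below are background-corrected, normalized log2 intensities, and differences are log2 values of high minus low Hsd3b5. Each array detected 11457 to 12476 probes, array-to-array correlations were 0.981 to 0.995, and precision is limited by how few livers there are.

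In rodents, the sexes secrete growth hormone in different patterns: males release it in pulses separated by quiet intervals, females more continuously. In hepatocytes the pulses act through the receptor, the kinase JAK2 and the transcription factor STAT5b, and the pattern sets many male-biased and female-biased liver transcripts. Hsd3b5, Cyp7b1 and members of the major urinary protein family are among the transcripts known to be higher in male mouse liver.

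On sucrose, the high livers SUC_415_02, SUC_421_03 and SUC_423_04 had Hsd3b5 log2 intensities of 11.38, 11.02 and 10.87. The low livers SUC_408_02, SUC_411_03 and SUC_424_02 had 9.40, 9.33 and 8.85. The unused middle liver SUC_417_01 stood at 10.79, just under the lowest high liver.

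On palatinose, the high livers PAL_407_04, PAL_417_03 and PAL_429_03 had 10.82, 10.73 and 10.60. The low livers PAL_430_04, PAL_417_02 and PAL_430_01 had 7.97, 7.45 and 4.32, and the middle liver PAL_418_07 had 10.11. PAL_430_01 was the only array on which the probe was not detected (detection p-value of 0.351). The spread was thus wider at the low end than at the high end, and wider with palatinose than with sucrose. On sucrose the boundary between the high group and the middle liver separates nearly equal levels.

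**Figure D1:**
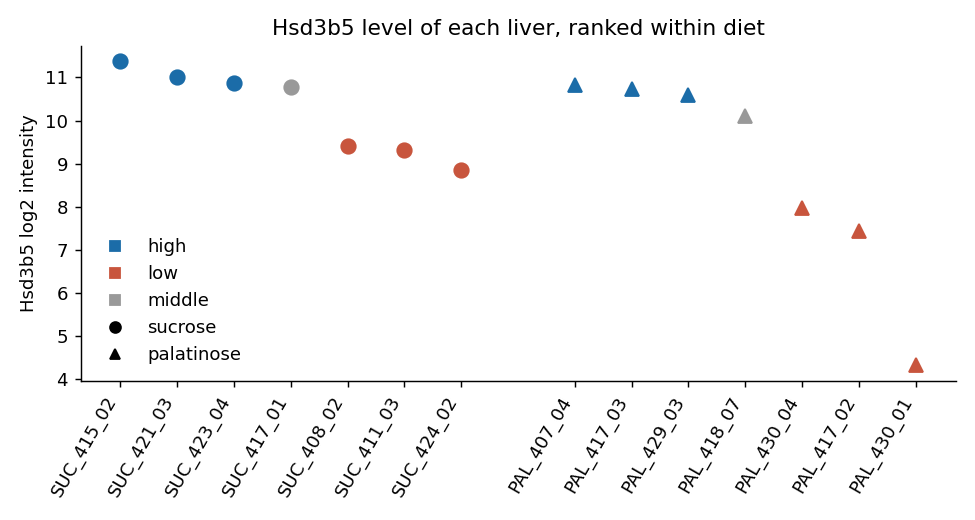
Log2 intensity of Hsd3b5 (y axis) on each of the 14 arrays, ordered by rank within diet (circles sucrose, triangles palatinose; blue high, red low, grey unused). The high livers span 10.60 to 11.38 and the low livers 4.32 to 9.40.

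Transcripts of other tissues moved with the ranking. Of 27 skeletal muscle genes on the array, 5 were detected on all arrays. Of the remaining 22, SUC_415_02 detected 18, PAL_407_04 detected 16, PAL_417_03 detected 11 and PAL_429_03 detected 20, against 0 to 2 on each of the other 10 arrays. Of 21 genes of the pancreatic acini, 2 were detected on all arrays, and of the remaining 19 SUC_415_02 detected 17 and SUC_421_03 detected 9, against 0 or 1 elsewhere. These 5 arrays are all in the high group, which leaves SUC_423_04 as the high liver without either tissue, and 0 of the 6 low arrays hold them.

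Mb, the oxygen-binding myoglobin of muscle, had a log2 intensity of 4.61, 6.62 and 9.81 (lowest, median, highest) in the high group and 4.34, 4.53 and 4.64 in the low group. The summed signal of the 8 measured muscle genes was 273 to 1584 in high livers and 194 to 306 in low livers, and Tnni1 and Pygm were detected on no array at a detection p-value under 0.01. Ctrl, a chymotrypsin-like protease of the acini, reached 8.45 on SUC_415_02 against 4.43 to 4.94 in low livers. At a detection p-value under 0.05, Mb was detected on 6 high and 1 low arrays and Ctrl on 5 and 2. Both thus passed the filter of at least 7 arrays mainly through the high group. All 3 high palatinose arrays held muscle transcripts, so high Hsd3b5 and muscle transcripts cannot be told apart on that diet. The part of these tissues in the results below was not tested beyond the values given without the arrays.

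**Figure D2:**
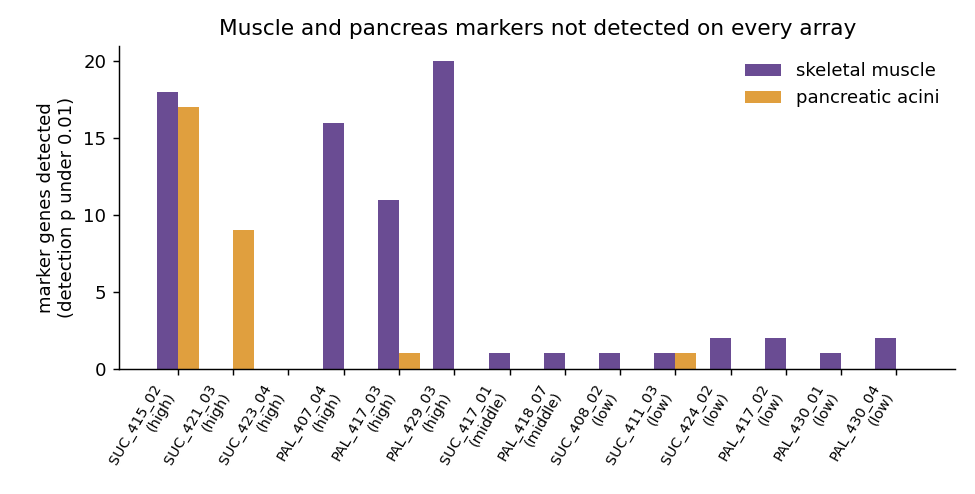
Number of skeletal muscle (purple) and pancreatic acinar (orange) marker genes detected on each array at a detection p-value under 0.01 (y axis), leaving out markers detected on every array. High livers reach 20 muscle and 17 acinar genes, and low livers at most 2 and 1.

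Few genes passed the test between livers with high and low Hsd3b5, and they split into a small group of higher and a larger group of lower transcripts. The bile acid and oxysterol hydroxylase Cyp7b1 and the liver transcription factor Foxa1 were higher, and the adhesion molecule Vcam1, the surface protein Ly6d and the glutathione transferase Gstm2 were lower. With limma and diet as a covariate, 17 of 8828 features (0.193%) had a Benjamini-Hochberg adjusted p under 0.05, of which 4 (0.0453%) were higher and 13 (0.147%) lower. Of the 17, 13 are named genes and 4 are probes without a gene name. The unadjusted p was under 0.05 for 1122 features (12.7%), 489 higher (5.54%) and 633 lower (7.17%). The 6 high and 6 low arrays did not overlap for 92 features (1.04%), which include 13 of the 17 called. All high arrays lay above all low ones for 41 features (0.464%) and below them for 51 (0.578%).

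Cyp7b1, which hydroxylates oxysterols and steroids, had log2 intensities of 12.20, 12.30 and 12.49 (lowest, median and highest of the 6 arrays) in high livers. In low livers it had 10.48, 11.25 and 11.89, so that every high liver lay above every low liver. The difference was +1.05 (95% interval 0.69 to 1.42, limma adjusted p = 0.0301), or 2.07-fold. It was +0.59 within sucrose and +1.52 within palatinose.

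Foxa1, a pioneer transcription factor of liver genes, had 6.99, 7.12 and 7.14 in high and 6.25, 6.56 and 6.87 in low livers, with no overlap. It rose by +0.55 (0.37 to 0.72, limma adjusted p = 0.0222). Npr2, the guanylate cyclase receptor of C-type natriuretic peptide, had 8.82, 9.0 and 9.38 against 7.92, 8.48 and 8.71. Its groups did not overlap and its difference was +0.64 (0.40 to 0.89, adjusted p = 0.0446). Nrp1, a co-receptor for semaphorins and vascular endothelial growth factor, had 9.24, 9.57 and 9.81 against 8.44, 9.02 and 9.17. Here too the groups were apart, at +0.64 (0.39 to 0.88, adjusted p = 0.0446). A further probe of Nrp1 gave +0.53.

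Notum, a secreted enzyme that inactivates Wnt proteins, had 7.89, 7.93 and 8.28 in high and 7.22, 7.53 and 7.65 in low livers. Its difference of +0.51 (0.30 to 0.72) missed the threshold (limma adjusted p = 0.0512), although the groups did not overlap.

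Vcam1, an adhesion molecule of endothelium and macrophages that binds leucocytes, had 6.25, 6.68 and 6.90 in high and 7.26, 7.51 and 7.77 in low livers. All low livers lay above all high livers, and the difference was -0.86 (-1.11 to -0.61, limma adjusted p = 0.0222), -0.83 within sucrose and -0.90 within palatinose. In whole liver, fewer cells of a type and less RNA per cell cannot be told apart. H2-DMb1, which helps to load peptides on class II molecules of antigen-presenting cells, had 5.41, 5.63 and 5.76 against 5.89, 6.26 and 6.58. It fell by 0.62 (95% interval of the difference -0.84 to -0.40, adjusted p = 0.0372) with no overlap.

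Ly6d, a lipid-anchored surface protein, had the largest difference among the called genes. Its levels were 5.04, 5.32 and 5.95 in high and 5.57, 6.92 and 8.07 in low livers, a difference of -1.51 (-2.09 to -0.92, limma adjusted p = 0.0446). The groups overlap, since the lowest low liver stood below the highest high liver. The difference was -0.97 within sucrose and -2.05 within palatinose, and a further probe gave -1.32.

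Among enzymes of glutathione metabolism, Gstm2, a mu-class glutathione transferase, had 10.20, 10.46 and 10.61 in high and 10.77, 11.19 and 11.37 in low livers. It fell by 0.70 (interval -0.94 to -0.47, limma adjusted p = 0.0240), and its 2 other kept probes gave -0.75 and -0.75. Ggct, which breaks down gamma-glutamyl peptides, had 6.28, 6.56 and 6.88 against 7.05, 7.16 and 7.56. Its difference was -0.63 (-0.82 to -0.43, adjusted p = 0.0222), but its 3 other kept probes gave smaller values of -0.23 to -0.32.

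Of the other lower genes, the actin-binding thymosin Tmsb10 had a difference of -0.79 (limma adjusted p = 0.0446), with overlapping groups (7.52 to 7.92 in high, 7.91 to 8.98 in low). AI413582, whose role is not given here, had -0.58 (adjusted p = 0.0446) and Pygb, the brain form of glycogen phosphorylase, -0.55 (adjusted p = 0.0487), both without overlap. Slco1a4, an organic anion transporter, had -0.45 (adjusted p = 0.0446), with levels of 6.07 to 6.59 in high and 6.50 to 7.05 in low livers. All 17 called features had the same sign in both diets. They were selected by the joint fit of the same livers, which favours a shared sign, so this is a description only. Of all 8828 features, 2540 were higher and 2306 lower in both diets.

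**Figure D3:**
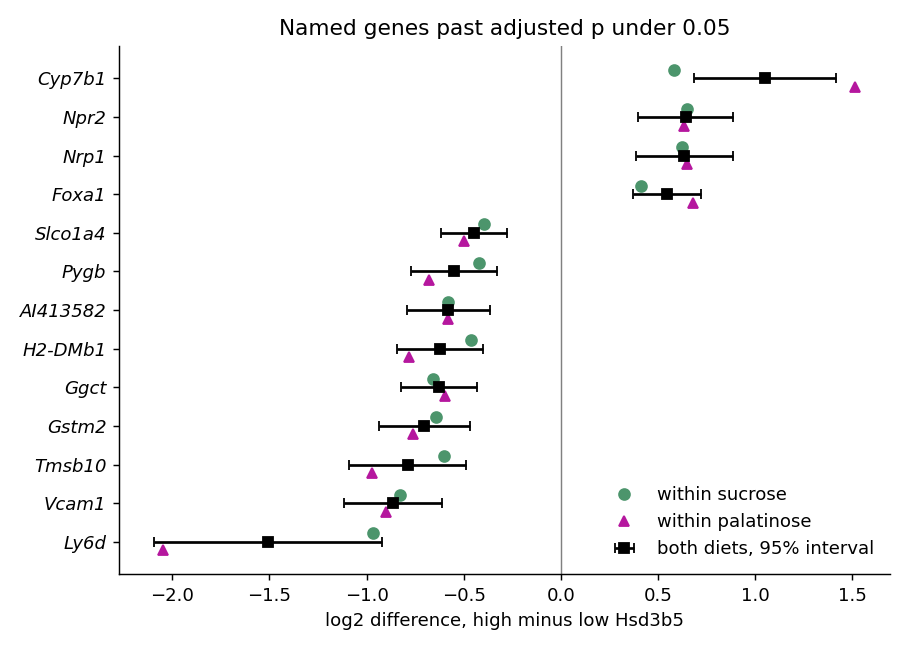
Log2 difference of high minus low Hsd3b5 (x axis) for the 13 named genes past the threshold. Squares with bars give the fit over both diets with its 95% interval, circles the sucrose livers and triangles the palatinose livers. Every diet-specific value has the sign of the joint value, on which the genes were selected.

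The calls depended on single livers. Without PAL_430_04 none of the 13 named genes passed (largest adjusted p = 0.104), and 0 features did so in all. The count of called features was 1 without PAL_407_04, 2 without SUC_411_03, 2 without PAL_429_03, 6 without SUC_423_04, 6 without PAL_430_01, 7 without SUC_415_02, 11 without SUC_424_02, 41 without SUC_408_02 and 51 without PAL_417_02. Vcam1 passed in 11 of the 12 fits that each left out 1 array (adjusted p = 0.0558 without PAL_430_04), Ggct in 9, Cyp7b1 and Foxa1 in 8, and Pygb in 0. Cyp7b1 and Foxa1 missed the threshold without SUC_411_03, PAL_407_04, PAL_429_03 or PAL_430_04. The other 8 named genes passed in 2 to 6 of the 12 fits. All 13 kept their sign throughout these fits. Some columns share the number in their name (417 and 430, whose meaning the labels do not give). With that number as a random block, Npr2 (limma adjusted p = 0.0628), Nrp1 (0.0837), AI413582 (0.0502) and Pygb (0.0528) no longer passed, and the other 9 did.

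Without the 4 arrays with muscle transcripts, a choice made after seeing the data, the high group comes down to the 2 sucrose livers SUC_421_03 and SUC_423_04, and 0 features passed. With no high palatinose liver left, these values rest on sucrose alone. Vcam1 then had -0.91 (-0.83 within sucrose over all arrays), Gstm2 -0.64 (-0.64) and Npr2 0.76 (0.65). Cyp7b1 had 0.61 (0.59), Ly6d -0.89 (-0.97), Tmsb10 -0.51 (-0.60) and Pygb -0.29 (-0.42), each smaller than its value over both diets. Without muscle and acinar arrays, SUC_423_04 was the only high liver, Cyp7b1 was at 0.56 and Pygb at -0.24.

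Within sucrose alone 0 features passed with limma (701 at an unadjusted p under 0.05, 7.94%). Within palatinose 1 feature passed, Cyp7b1 (0.0113%, adjusted p = 0.00529, 1110 at an unadjusted p under 0.05, 12.6%). The test of the difference between the diets called 0 features, with a smallest adjusted p of 0.707 and 615 features (6.97%) at an unadjusted p under 0.05. The diets' effects were therefore not shown to differ.

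Male-biased transcripts were mostly higher in livers with high Hsd3b5. Of 29 measured members of the male-biased list, 28 had higher values and 1, Cyp2c70, a lower value, with a median difference of 0.31. Over all features tested, 52.2% had higher values and the median was 0.01. In the list 13 members (44.8%) were higher at an unadjusted p under 0.05, against 5.54% of all features. Called was 1 member, Cyp7b1, where 0.0453% of all features were called higher.

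Serpina12, the hepatic serpin also called vaspin, had 10.63, 11.06 and 11.37 in high and 8.04, 10.08 and 10.96 in low livers. Its difference of +1.21 did not pass (limma adjusted p = 0.198), the groups overlapped, and a further probe gave +0.40. Susd4, a complement-regulating membrane protein, had 6.97, 7.21 and 7.69 against 4.84, 6.51 and 7.09, a difference of +0.95 (adjusted p = 0.176). Obp2a, an odorant-binding lipocalin, had +0.90 (adjusted p = 0.384) and Cyp4a12b, a fatty acid hydroxylase, +0.73 (adjusted p = 0.183). For Cyp4a12b the difference was +0.22 within sucrose and +1.24 within palatinose. Its relative Cyp4a12a had +0.27 (adjusted p = 0.673), -0.02 within sucrose and +0.57 within palatinose.

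The complement components C8b and C6, made by hepatocytes, had +0.70 (limma adjusted p = 0.151) and +0.40 (adjusted p = 0.222). Among cytochromes, Cyp2d9, a testosterone hydroxylase, had +0.59 (13.23, 13.50 and 13.63 against 11.89, 13.06 and 13.47, adjusted p = 0.247). Mup21, of the major urinary proteins that carry pheromones, had +0.54 (adjusted p = 0.235), whereas Mup20 had +0.15 (adjusted p = 0.836). Urinary protein genes are near-identical copies, and a probe may read several of them.

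Elovl3, an elongase of very long fatty acids, had -0.26 within sucrose and +1.45 within palatinose, for a joint value of +0.60 (limma adjusted p = 0.390). Its test of the difference between diets had an unadjusted p of 0.000144 and an adjusted p of 0.707. The median of the male-biased list was 0.17 within sucrose and 0.57 within palatinose. Without the 4 muscle arrays, and so on sucrose alone, 24 of 29 members had higher values and the median was 0.14. Without muscle and acinar arrays, with SUC_423_04 as the only high liver, these were 19 of 29 and 0.10.

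The measured female-biased transcripts were mostly lower in high livers. Of the 41 genes on the list, 29 are on the array and 13 were measured, where measured means a detection p-value under 0.05 on at least 7 arrays. The same filter kept 11628 of all 25697 probes, so the list was not shown to be detected less often than other genes. At the stricter detection p-value under 0.01, 15 genes of the list were detected on no array, among them Fmo2, which is 1 of the 13. Of the 13, 11 had lower and 2 higher values, with a median of -0.30, and 6 were lower at an unadjusted p under 0.05 (46.2%, against 7.17% of all features). None was called.

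Cyp17a1, the steroid 17-alpha-hydroxylase, had log2 intensities of 7.15, 7.59 and 8.05 in high and 8.53, 8.75 and 10.63 in low livers. The groups did not overlap, and the difference of -1.59 (-2.30 to -0.87) missed the threshold (limma adjusted p = 0.0752). It was -1.38 within sucrose, -1.79 within palatinose and -1.42 without the muscle arrays. Cyp2b9, a female-biased cytochrome, had 5.34, 6.60 and 8.74 against 4.77, 8.42 and 10.01, and its difference was +0.24 within sucrose and -3.16 within palatinose. The joint value of -1.46 had an adjusted p of 0.436. Vldlr, a lipoprotein receptor, had -0.48, Ntrk2, a neurotrophin receptor, -0.56, Cyp2c39 -0.41, Abcd2, a peroxisomal fatty acid transporter, -0.36, and Fmo1, a flavin monooxygenase, -0.30, with none past the threshold.

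**Figure D4:**
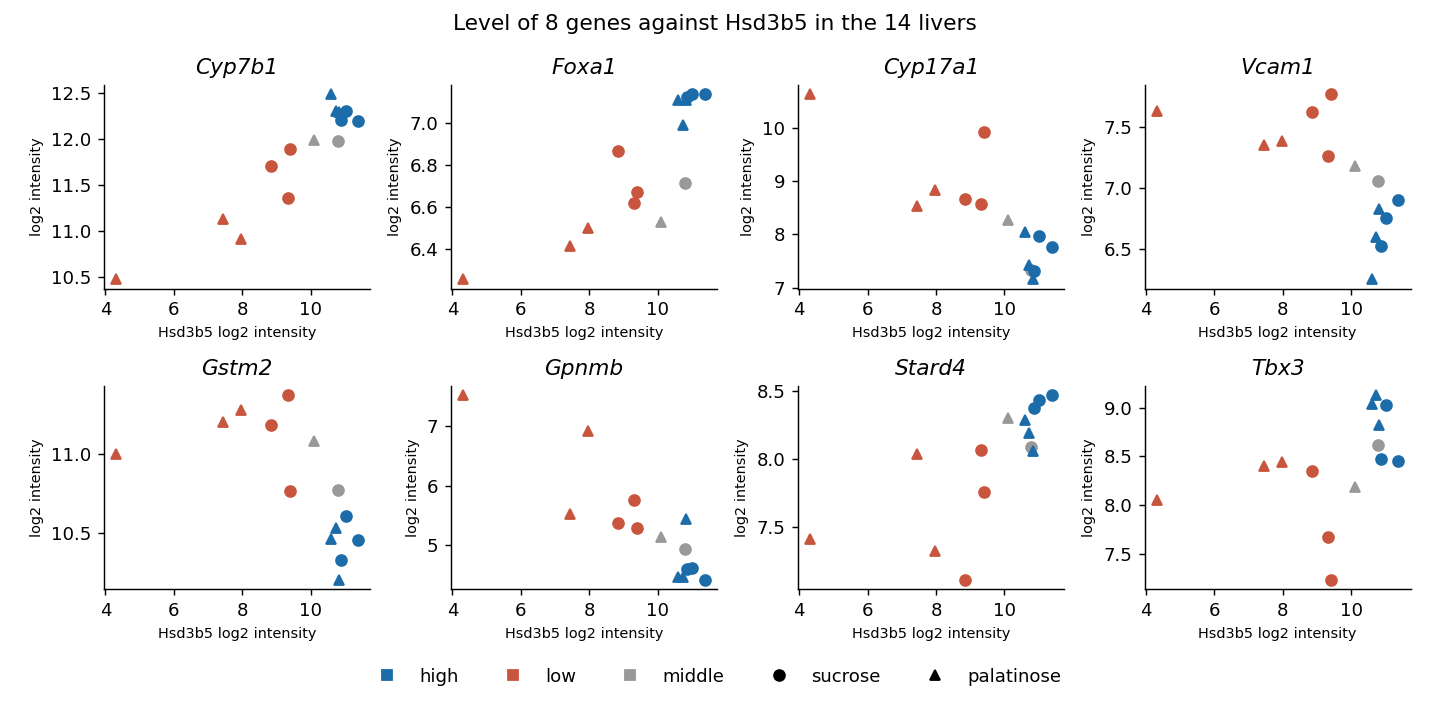
Log2 intensity of 8 genes (y axes) against that of Hsd3b5 (x axes) on the 14 arrays (circles sucrose, triangles palatinose; blue high, red low, grey unused). For Cyp7b1, Foxa1 and Tbx3 all high livers lie above all low livers, and for Vcam1, Gstm2 and Cyp17a1 below them.

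Of a panel of 20 genes of growth hormone signalling, 14 were measured and none passed, where 0.193% of all features did. At an unadjusted p under 0.05 were 2 of the 14, against 12.7% of all features. Socs2, a feedback inhibitor induced by growth hormone, had 6.80, 7.77 and 9.79 in high and 6.56, 7.66 and 8.77 in low livers, a difference of +0.30 (-0.54 to 1.14, limma adjusted p = 0.792). Cish, another such inhibitor, had -0.29 (adjusted p = 0.747), and Socs3 had +0.04 (adjusted p = 0.899). Bcl6, a repressor of STAT5 targets that is higher in males, had 9.20, 9.50 and 9.89 against 7.47, 9.43 and 10.17, a difference of +0.32 (adjusted p = 0.721). The groups overlapped for each of these 4 genes, as they did for all but 1.04% of all features.

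The receptor Ghr had +0.11 (-0.11 to 0.33), Jak2 +0.18 (-0.03 to 0.39, with -0.06 from a further probe) and Stat5a -0.13 (-0.41 to 0.14). Stat5b and Socs1 were detected on no array at a detection p-value under 0.01. The secreted targets Igf1 and Igfals, the growth factor and its carrier subunit, had +0.11 (-0.09 to 0.31) and +0.27 (0.07 to 0.46, limma adjusted p = 0.236). The binding proteins had -0.22 for Igfbp1, +0.17 for Igfbp2 and -0.45 for Igfbp3 (adjusted p = 0.336), and the hormone Fgf21 and its co-receptor Klb had +0.45 and +0.04. The transcript levels of this panel do not show the pattern of hormone release.

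The genes whose levels were most like those of Hsd3b5 were found by Pearson correlation over the 14 arrays after removal of the diet means, a description in which all values share the arrays. Timm9, of mitochondrial protein import, and Cyp7b1 had 0.93 each, Mfsd4b1, a membrane transporter, and Cyp1a2, a pericentral cytochrome, 0.92 each. Timm29, of the import machinery too, had 0.90, the epoxide hydrolase Ephx2 and Rhobtb3 0.89 each, and Susd4 0.89. Without PAL_430_01 and PAL_417_02, the arrays farthest from the median, Timm9 had 0.91, Cyp7b1 0.90, Cyp1a2 0.82 and Susd4 0.59.

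The most opposite genes were Cdc20, a cell-division activator (-0.91), Faap20, of the Fanconi anaemia pathway (-0.89), Ly9, a lymphocyte surface receptor (-0.88), and Ttc39a (-0.88). Without the same arrays they had -0.69, -0.86, -0.65 and -0.92. Cdc20 was detected on 1 of 6 high and 5 of 6 low arrays, Ttc39a on 1 and 6 and Ly9 on 3 and 6. In most high livers Cdc20 and Ttc39a thus lie at background, as does Ly9 in those where it was not detected. Cdc20 and Ttc39a passed the filter on dim probes mainly through the low group. Cyp1a2 had 10.31, 10.56 and 10.96 in high and 9.24, 10.06 and 10.26 in low livers, without overlap, and a difference of +0.65 that did not pass (limma adjusted p = 0.114). It was picked here for its likeness to Hsd3b5, whose ranks form the groups, so their separation is a description only.

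Macrophage markers all had lower values in high livers. All 12 measured markers were lower, 7 of them at an unadjusted p under 0.05 (58.3%), with a median of -0.63 and none called. Over all features 47.8% had lower values, and 7.17% were lower at an unadjusted p under 0.05. The summed signal was 1899 to 4061 in high and 3641 to 7656 in low livers, ranges that overlap. Cd5l and Itgax were detected on no array at a detection p-value under 0.01.

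Gpnmb, a glycoprotein of lipid-laden macrophages, had 4.42, 4.53 and 5.44 in high and 5.29, 5.64 and 7.52 in low livers, a difference of -1.40 (limma adjusted p = 0.0800). It was detected on 2 of 6 high and on 6 of 6 low arrays. Lysozyme Lyz2 had 6.94, 7.76 and 8.35 against 8.22, 8.86 and 9.30 (-1.07, adjusted p = 0.0954). Complement C1qc had -0.79 (adjusted p = 0.136) and Lyz1 -0.88 (adjusted p = 0.146). Without the muscle arrays 12 of 12 markers were lower at a median of -0.51, and without both arrays numbered 430 the count was 12 of 12 at -0.43.

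Other cell types of the liver gave the following values. Of 14 measured stellate cell and fibrosis genes, 12 had lower (85.7%, against 47.8% of all features) and 2 higher values, with a median of -0.23. Vim, an intermediate filament protein, had 4.89, 5.47 and 5.77 in high and 5.91, 6.15 and 6.38 in low livers, no overlap, and a difference of -0.71 (limma adjusted p = 0.0512). The collagen cross-linking enzyme Loxl1 had -0.52 (adjusted p = 0.119) and the growth factor receptor Pdgfrb -0.43 (adjusted p = 0.127). Desmin, Des, had +0.63 (adjusted p = 0.246) and is also a muscle gene. Of the antigen-presenting and lymphoid genes, Cd74, the invariant chain, had 7.75, 8.63 and 8.92 against 9.05, 9.51 and 10.29, with no overlap and a difference of -0.99 (adjusted p = 0.0882). Of 3 measured neutrophil genes, the calcium-binding proteins S100a8 and S100a9 had -0.64 (adjusted p = 0.230) and -0.60 (adjusted p = 0.211). The other, Elane, had +0.02 (adjusted p = 0.966). The 11 measured hepatocyte markers had a median of -0.01, and their summed signal was 152038 to 157134 in high and 152003 to 162986 in low livers.

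Genes of cholesterol synthesis mostly had higher values in high livers. Of 18 measured members 16 were higher and 2 lower, 7 were higher at an unadjusted p under 0.05 (38.9%), and the median was 0.37, with none called. The shares over all features were 52.2% with higher values and 5.54% higher at that p. Stard4, a cytosolic cholesterol carrier, had 8.06, 8.33 and 8.47 in high and 7.10, 7.58 and 8.07 in low livers, a difference of +0.69 (limma adjusted p = 0.0882). The demethylase Cyp51 had +0.69 (adjusted p = 0.229), the reductase Hsd17b7 +0.45 (adjusted p = 0.203) and the feedback regulator Insig1 +0.40 (adjusted p = 0.195), with +0.16 and +0.13 from its other probes. Without PAL_430_01 and PAL_430_04, 11 of 18 members were higher and the median was 0.11.

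Genes of the zones of the liver lobule gave mixed values, with none called. Of 16 measured pericentral genes 11 had higher (68.8%, against 52.2% of all features) and 5 lower values, with a median of 0.12. Of 11 periportal genes 8 had lower (72.7%, against 47.8% of all features) and 3 higher values, with a median of -0.22. A difference between these lists was not tested. Tbx3, a pericentral transcription factor and Wnt target, had 8.45, 8.92 and 9.13 in high and 7.23, 8.20 and 8.44 in low livers, no overlap, and a difference of +0.80 (limma adjusted p = 0.0752). Its other kept probes gave +0.29 and +0.71. The glutamate transporter Slc1a2 had +0.50 (adjusted p = 0.136) and the Wnt feedback gene Axin2 +0.43 (adjusted p = 0.207).

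Among periportal genes, the mitochondrial aldehyde dehydrogenase Aldh1b1 had 6.24, 6.41 and 6.70 in high and 6.80, 7.96 and 8.94 in low livers. The groups did not overlap and the difference was -1.34 (limma adjusted p = 0.0882). Histidase, Hal, had -0.62 (adjusted p = 0.200), Ass1, of the urea cycle, -0.40 (adjusted p = 0.210) and Etnppl, an ethanolamine phosphate lyase, -0.89 (adjusted p = 0.245). Without the muscle and acinar arrays the pericentral counts were 11 higher and 5 lower and the periportal counts 1 higher and 10 lower. These counts rest on SUC_423_04 as the only high liver, on sucrose alone.

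In the glutathione and NRF2 list, 18 of 20 measured members had lower (90%, against 47.8% of all features) and 2 higher values (median -0.22). At an unadjusted p under 0.05, 5 were lower (25%, against 7.17% of all features). Gstm2 was the only called member, where 0.147% of all features were called lower. Gstm1 had -0.64 (limma adjusted p = 0.0882), Gstm6 -0.37 (adjusted p = 0.156) and the haem oxygenase Hmox1 -0.45 (adjusted p = 0.231). These mu-class transferases are similar in sequence, and a probe may read more than its named gene. The median was -0.04 within sucrose (9 of 20 higher) and -0.35 within palatinose (1 of 20 higher). Without the muscle arrays, which leaves high livers on sucrose alone, 12 values were lower and 8 higher, with a median of -0.01.

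Of 27 acute phase genes 22 had lower and 5 higher values (median -0.15), 9 were lower at an unadjusted p under 0.05 (33.3%), and none was called. The shares over all features were 47.8% with lower values and 7.17% lower at that p. The iron-binding lipocalin Lcn2 had 6.18, 6.87 and 8.05 in high and 7.20, 8.34 and 9.34 in low livers (-1.39, limma adjusted p = 0.127). The metal-binding metallothioneins Mt1 and Mt2 had -0.99 (adjusted p = 0.127) and -0.75 (adjusted p = 0.0705), and the interleukin antagonist Il1rn -0.70 (adjusted p = 0.0848). The list median was -0.39 within sucrose and -0.03 within palatinose.

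**Figure D5:**
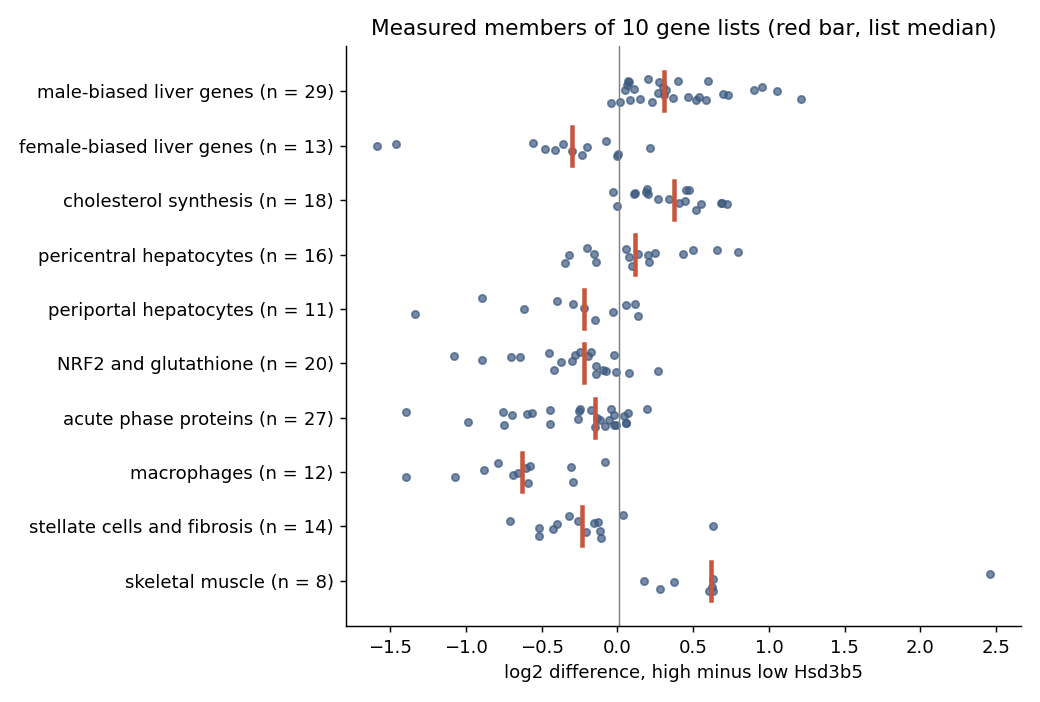
Log2 difference of high minus low Hsd3b5 (x axis) for each measured member of 10 gene lists (points), with the list median as a red bar. Male-biased and cholesterol synthesis genes lie mostly above 0, female-biased, macrophage and glutathione genes mostly below, and the skeletal muscle genes, held on 4 high arrays, above 0.

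Of the listed genes of lipid storage and synthesis none was called, where 0.193% of all features were. Of 21 measured lipid droplet genes, 14 had lower (66.7%, against 47.8% of all features) and 7 higher values. At an unadjusted p under 0.05, 4 were lower (19%, against 7.17% of all features) and 1 higher (4.76%, against 5.54%). Cidea, a lipid droplet protein, had 8.09, 8.60 and 10.42 in high and 5.97, 10.56 and 11.09 in low livers, a difference of -0.80 (limma adjusted p = 0.700). Its relative Cidec had -0.91 (adjusted p = 0.245), and G0s2, an inhibitor of lipolysis, +0.55 (adjusted p = 0.152). Of 22 lipogenic genes 15 had lower (68.2%, against 47.8% of all features) and 7 higher values (median -0.07). Among them were Thrsp (-0.94, adjusted p = 0.327), Scd1 (-0.23, adjusted p = 0.312) and the carbohydrate-response factor Mlxipl (+0.34, adjusted p = 0.246).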

How the data were processed

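Per the file headers, the non-normalized data deposited by the authors pair every probe's intensity on an array with its detection p-value. The authors also deposited normalized intensities, and how they were normalized is not stated in the labels or headers. Non-normalized intensities were background-corrected from the detection p-values, given an offset of 16, quantile-normalized and log2-transformed by neqc (limma 3.58.1, R 4.3.3). The offset draws differences of dim probes toward 0. Probes detected at a p-value under 0.05 on at least 7 of 14 arrays were kept (11628), and the brightest probe stood for a gene, giving 8829 features, 8828 without Hsd3b5. lmFit and eBayes compared 6 high with 6 low arrays with diet as a covariate, two-sided, with Benjamini-Hochberg adjustment. Within-diet values and the difference between diets came from a fit of 4 groups.

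Named genes are up to 12 called genes of largest difference per direction (filled to 5 by smallest p), a growth hormone panel, the sex-biased lists, up to 4 members of each described list by smallest p, and the 8 most like and 4 most opposite genes. Cidea and the muscle and acinar genes were also named, after their values were seen. The members and the 36 gene lists were chosen with earlier results of these data known. The comparison was tested on simulated data. Alternatives covered background, scaling, filter, the authors' values, moderation, array weights, grouping and left-out arrays.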

Additional observations from a re-analysis of the deposited data

Results flagged for a closer look

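For 216 groups of 6 arrays (a gene in the high or the low livers), the array farthest out was set against the other 5, and 19 exceeded Dixon's 95% critical value for 6 values, where chance alone gives about 1 in 20 groups. Values are log2 intensities, and every item below stands out because 1 array lies far from the others of its group.

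On PAL_430_01, the liver with the lowest Hsd3b5, 5 genes stood apart from the other low livers. These were Ggct at 7.56, Igfbp1 at 6.11, Susd4 at 4.84, Cyp1a2 at 9.24 and Cdc20 at 6.31. Among the other low livers, Bcl6 was 7.47 on SUC_408_02, Irs2 was 5.30 on SUC_424_02 and Cd79b, of the B cell receptor, was 7.53 on PAL_417_02.

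On SUC_415_02, the high liver with both muscle and acinar transcripts, Cela1 was 9.67, Ctrl 8.45, Ass1 12.43 and Cdkn1a 4.69. On PAL_429_03 Abcd2 was 5.81, Cidea 10.42 and Cyp3a11 8.72. On PAL_407_04 Gpnmb was 5.44 and Cd79b 4.60. On SUC_421_03 Mt2 was 5.91, and on PAL_417_03 Foxa1 was 6.99.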

How the results depend on the processing

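The count of 17 called features (4 higher, 13 lower) depended on the settings, whereas the sign of the 13 named called genes was kept in 414 of 414 alternative values. Counts were 0 without background correction and 0 without the filter, 0 for the 2 highest against the 2 lowest livers of each diet, 8 (1 higher, 7 lower) with cyclic loess, 38 (2 and 36) with median scaling, 40 (10 and 30) with array weights, 9 (2 and 7) without the diet covariate and 139 (42 and 97) in a regression on the Hsd3b5 level over 14 arrays. Joining the middle livers gave 8 (3 and 5) with the high and 4 (1 and 3) with the low group. The column number as a random block (consensus correlation 0.39) gave 11 (2 and 9). Leaving out 1 array gave 0 to 51 (0 to 10 higher, 0 to 41 lower). Chosen after seeing the data, leaving out arrays gave 0 for muscle, 0 for muscle or acini, 1 lower for acini (0 higher) and 0 for both arrays numbered 430. The count at an unadjusted p under 0.05 was 1736 without the filter, 654 for the 2 highest against the 2 lowest, 512 without muscle arrays, 256 without muscle or acinar arrays and 623 without the arrays numbered 430. Without background correction Pygb had -1.11 and AI413582 -0.94. Among 108 genes, 42 of 3433 alternative values had the opposite sign, none of a called gene. Median scaling gave Socs3 -0.061 and Klb -0.047, array weights Socs3 -0.020, the regression Cish 0.044 and Mup20 -0.017, the 2 highest against the 2 lowest Cish 0.31, Bcl6 -0.12 and Klb -0.020, and the middle livers joined to high Klb -0.011. Leaving out 1 array gave Bcl6 -0.029 to 0.57, Socs3 -0.017 to 0.089, Klb -0.010 to 0.16, Mup20 -0.015 to 0.37 and Cyp2c70 -0.16 to 0.083. Without muscle or acinar arrays Socs2 had -0.89, Socs3 -0.0018, Ghr -0.092, Jak2 -0.037, Igf1 -0.071, Igfbp2 -0.36, Igfbp3 0.15, Klb -0.18, Obp2a -0.058, Elovl3 -0.083, Cyp2b9 0.50 and Ctrl -0.19. Without muscle arrays Ghr had -0.11, Jak2 -0.033, Igfbp1 0.090, Klb -0.17 and Elovl3 -0.078. Without the arrays numbered 430 Klb had -0.040 and Cyp2c70 0.15, and the random block gave Cyp2c70 0.023. Apart from the left-out arrays, the cause of these shifts was not tested. By rank correlation, each column of the authors' values matched 1 non-normalized column, at 0.99987 to 1 against at most 0.9196 for the next. The replicate numbers of the labels were nevertheless used on the authors' values alone, whose columns are named by sample. There the replicate block, added after seeing the data, gave 30 calls (10 higher, 20 lower), of which 1, Ggct, was among the 17, and Socs2 -0.60, Stat5a 0.11, Igf1 -0.032, Igfbp2 -0.64, Cidea 1.27 and Ctrl -0.021. This fit has 4 residual degrees of freedom, and the high-low difference rests on the 2 numbers that join a high with a low liver. Same-numbered livers of the diets shared deviations with correlations of -0.23 to 0.16, over 0.1 for 3 of 7 numbers. These 3 pairs each joined livers of the same group, high or low, but number 5, which also joined high with high, had 0.00735. Whether same-numbered livers share more than a number was not tested.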

Other observations

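Some gene groups not described above had these values. Of 19 measured bile acid genes, 12 had higher (63.2%, against 52.2% of all features) and 7 lower values (median 0.08). In each direction 1 was called, Cyp7b1 higher and Slco1a4 lower, where 0.0453% and 0.147% of all features were called. Abcg8, of the sterol exporter into bile, had log2 intensities of 10.15, 10.20 and 10.46 in high and 9.32, 9.93 and 10.05 in low livers, without overlap (difference +0.45, limma adjusted p = 0.145). Acox2, of bile acid side-chain shortening, had -0.27 (adjusted p = 0.191), and Cyp3a11, a drug- and steroid-metabolizing cytochrome, -1.01 (adjusted p = 0.336). The insulin receptor substrate Irs2 had 6.83, 7.10 and 7.90 in high and 5.30, 6.72 and 6.84 in low livers (+0.74, adjusted p = 0.233), and Lpin1, a phosphatidate phosphatase, had -0.66 (adjusted p = 0.297). Without the muscle arrays the bile acid list had 9 higher and 10 lower values.

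The glucocorticoid target list had 11 lower (73.3%, against 47.8% of all features) and 4 higher values of 15 measured. Its median was -0.30 within sucrose and 0.04 within palatinose. Its member Cdkn1a, a cell-cycle inhibitor, had 4.69, 6.35 and 6.61 in high and 6.89, 7.31 and 8.63 in low livers, without overlap (-1.46, limma adjusted p = 0.105), and its other probes gave -0.90 and -0.89. Cytosolic ribosomal protein genes, 13 measured, had 7 higher and 6 lower values and a median of 0.01, with 0 of them at an unadjusted p under 0.05.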
